A study of Mus musculus with 24 samples.

Results

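The cyclins and kinases of meiotic division were followed in mouse testis through the first wave of spermatogenesis. These are 10 genes, chosen by symbol from a list of genes that drive exit from pachytene and the 2 meiotic divisions: the A-type cyclins *Ccna1* and *Ccna2*, the B-type cyclins *Ccnb1* and *Ccnb2*, the kinase *Cdk1*, its activating phosphatase *Cdc25c*, the Polo kinase *Plk1*, and the Aurora kinases *Aurka*, *Aurkb* and *Aurkc*. All 10 were found among the 24456 genes of the count tables and all 10 passed the filter on low counts, as did 17170 genes in all. Whole testes were collected from wild-type (WT) mice and from mice homozygous for a disrupted *Atad2* gene (KO) at postnatal days 20, 22, 24 and 26, and total RNA was sequenced. Either genotype was represented by 4 libraries on days 20 and 22 but by 2 on days 24 and 26. The KO allele carries a lacZ cassette spliced to the upstream exons of *Atad2*, and a downstream exon was removed by a Cre recombinase under the ubiquitous CMV promoter, so that every cell of the testis carries the change and not the germ cells alone. *Atad2* encodes a chromatin ATPase with a bromodomain. No further treatment or allele is given in the labels, and the strain is not given in the sources used here. Library names join genotype, day and replicate number (WT_d20_2).

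The labels were checked against *Atad2* itself, which was lower in KO with no overlap between the genotypes at any of the 4 ages, the log2 fold changes being -1.67, -1.13, -1.43 and -1.25 in order of age. Markers of spermatogonia, meiotic cells, spermatids, Sertoli, Leydig and peritubular cells were all present, whereas markers of the epididymis, which lies beside the testis, summed to under 1 CPM (counts per 1000000 counts of the library, whose size was scaled by the TMM method) in some libraries and to as much as 716 CPM in others. The highest epididymal sum was in WT at every age (276, 530, 716 and 545 CPM in order of age, against 50.6, 128, 157 and 128 CPM in KO). The part of this tissue in the differences between genotypes was not tested. One library stood apart. WT_d20_2 had the most read pairs with several alignments (13.7%, next 9.16%) and the most mitochondrial ribosomal RNA (3.26% of gene counts, next 1.06%). It also had the fewest gene counts (10709667, next 11755730 in WT_d22_2, and up to 19491935 elsewhere). Its early-meiosis markers summed to 2550 CPM, against 1340 to 1450 CPM in the other WT libraries of day 20. The values of the members in the fit without it are given beside those of the fit with all libraries for 2 comparisons. These are days 20 and 26 in WT and the genotypes at day 20. Elsewhere they are given as counts or for single members.

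CDK1 bound to a cyclin is the kinase that carries a cell from G2, or from the long pachytene stage of meiosis, into division. Phosphatases of the CDC25 family remove the phosphates that hold CDK1 inactive, Polo and Aurora kinases act with it on centrosomes, chromosomes and the spindle, and the anaphase promoting complex ends division by destroying the cyclins. In the mouse, cyclin A1 is the form of male meiotic cells and is needed to complete meiosis, cyclin A2 is the form of mitotic cells, and Aurora C is largely restricted to germ cells. Because testis RNA is a mixture, fewer cells of a type and less RNA per cell cannot be told apart in any value below.

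The genes lie on mouse build mm10 (GENCODE M21 annotation) at chr3:55045469-55055501 (*Ccna1*, minus strand), chr3:36564865-36572150 (*Ccna2*, minus), chr13:100778650-100786570 (*Ccnb1*, minus), chr9:70407692-70421547 (*Ccnb2*, minus), chr10:69335146-69352938 (*Cdk1*, minus), chr7:122159439-122169873 (*Plk1*, plus), chr2:172356190-172370535 (*Aurka*, minus), chr11:69045647-69051664 (*Aurkb*, plus) and chr7:6995300-7003091 (*Aurkc*, plus). The position of *Cdc25c* is not reported here. The gene models behind the deposited counts are not given in the sources used here, and those of M21 were matched by symbol, so every level per kilobase and every ratio per length divides the counts by exon lengths that may differ from those counted. None shares exon sequence with a gene on its own strand. *Ccna1*, *Ccna2*, *Cdc25c* and *Plk1* share 7.09% to 12.7% of their exon bases with a gene on the other strand, which the strand-specific counting keeps apart. *Ccnb1* and *Ccnb2* have annotated pseudogenes, and read pairs that aligned to several places were discarded, so the level of these B cyclins is uncertain by an unknown amount.

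Promoter windows of 250 bases before to 50 bases after the start site were taken from RefSeq (build GRCm38.p6), in which 7 of the 10 genes were matched by symbol, and *Ccna2*, *Cdc25c* and *Aurkb* were not. They were searched on both strands for CCAAT, the box bound by NF-Y, and TTTGAA, the core of the CHR element through which the DREAM and MuvB complexes act on cell-cycle genes. The 2 motifs did not overlap in any window. All 7 windows held CCAAT and 4 held TTTGAA as well. Of the 32851 windows of the table, 37.4% held CCAAT, 17.9% held TTTGAA and 6.95% held both. The following 5 are printed 5′ to 3′ because *Cdk1* passed the test over time in neither genotype, *Ccnb2* and *Aurka* had the most alike courses, and *Plk1* and *Ccna1* had the steepest rise. Capitals mark these 2 motifs, read on either strand. The windows are chr10:69352863-69353162 (*Cdk1*, minus), chr9:70421505-70421804 (*Ccnb2*, minus), chr2:172370521-172370820 (*Aurka*, minus), chr7:122159185-122159484 (*Plk1*, plus) and chr3:55055006-55055305 (*Ccna1*, minus).
Cdk1: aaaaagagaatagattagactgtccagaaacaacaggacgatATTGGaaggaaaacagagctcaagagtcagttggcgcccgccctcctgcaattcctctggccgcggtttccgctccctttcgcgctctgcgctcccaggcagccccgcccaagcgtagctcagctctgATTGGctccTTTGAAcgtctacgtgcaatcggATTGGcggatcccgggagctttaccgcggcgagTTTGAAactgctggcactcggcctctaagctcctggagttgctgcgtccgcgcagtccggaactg
Ccnb2: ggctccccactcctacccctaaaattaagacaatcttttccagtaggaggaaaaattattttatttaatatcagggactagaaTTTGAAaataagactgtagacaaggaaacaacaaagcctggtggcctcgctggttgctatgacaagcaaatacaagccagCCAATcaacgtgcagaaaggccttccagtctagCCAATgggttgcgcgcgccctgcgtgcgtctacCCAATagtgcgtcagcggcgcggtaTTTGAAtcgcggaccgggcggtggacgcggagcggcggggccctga
Aurka: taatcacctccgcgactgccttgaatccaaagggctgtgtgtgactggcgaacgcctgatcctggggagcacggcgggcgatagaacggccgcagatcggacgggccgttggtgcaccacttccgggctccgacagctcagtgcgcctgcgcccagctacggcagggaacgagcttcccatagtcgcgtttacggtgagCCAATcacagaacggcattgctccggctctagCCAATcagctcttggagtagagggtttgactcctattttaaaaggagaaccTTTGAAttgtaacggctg
Plk1: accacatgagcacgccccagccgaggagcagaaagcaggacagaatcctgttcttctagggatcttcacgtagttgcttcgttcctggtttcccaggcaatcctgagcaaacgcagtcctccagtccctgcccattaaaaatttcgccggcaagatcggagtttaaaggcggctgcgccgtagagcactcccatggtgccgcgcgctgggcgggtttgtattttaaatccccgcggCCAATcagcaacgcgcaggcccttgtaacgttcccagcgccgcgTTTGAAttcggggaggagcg
Ccna1: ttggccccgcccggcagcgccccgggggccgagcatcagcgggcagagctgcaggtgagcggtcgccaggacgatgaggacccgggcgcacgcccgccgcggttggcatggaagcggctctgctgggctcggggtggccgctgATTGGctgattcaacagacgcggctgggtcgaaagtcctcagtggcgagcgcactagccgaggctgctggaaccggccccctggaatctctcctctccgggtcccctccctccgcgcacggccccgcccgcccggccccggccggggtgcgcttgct

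The *Cdk1* and *Ccnb2* windows each held 3 CCAAT and 2 TTTGAA motifs. In *Cdk1* a TTTGAA stood 15 bases before the start site and in *Ccnb2* one stood 5 bases after it. *Aurka* held 2 CCAAT motifs and 1 TTTGAA, and *Plk1* held 1 of each. *Ccna1* held 1 CCAAT motif, 107 bases before the start site, and no TTTGAA, *Ccnb1* held 2 CCAAT motifs and *Aurkc* held 1. The *Ccna1* window, at 55055006 to 55055305, lies wholly within the M21 span of the gene, which ends at 55055501. Its motifs are thus placed against a RefSeq start site inside that span. A window with at least 2 CCAAT motifs and a TTTGAA was found in 2.09% of the table. AACNG, the core of the site of MYB proteins such as A-MYB, occurred in 80.3% of all windows.

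The levels of the 10 genes spanned a wide range. Per kilobase of exon and averaged over the 24 libraries, *Ccnb2* stood at 72.9 CPM per kilobase, *Aurka* at 61.5, *Ccna1* at 55.4, *Plk1* at 28.0, *Cdk1* at 17.5, *Ccnb1* at 14.5, *Ccna2* at 8.73, *Aurkc* at 6.89, *Aurkb* at 3.61 and *Cdc25c* at 1.73. Measured against the longest transcript in place of all exons, *Aurka* and *Ccnb2* exchanged places, as did *Cdk1* and *Ccnb1*. In WT at day 20 *Ccnb2* and *Aurka* overlapped, as did *Aurka* and *Ccna1*, and *Plk1* was the seventh. It was the fourth in every group from day 22 onwards, and did not overlap the genes beside it in the order, except that per longest transcript it overlapped *Ccnb1* at day 22. The order of *Ccna1* and *Aurka* at day 26 depended on the length used. Per kilobase of exon *Ccna1* stood above *Aurka* in both genotypes without overlap, and in KO it overlapped *Ccnb2* at the head of the list. Per longest transcript *Aurka* stood above *Ccna1*, at 82.2 against 78.3 CPM per kilobase in WT and 120 against 118 in KO, and the 2 genes overlapped.

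**Figure D1:**
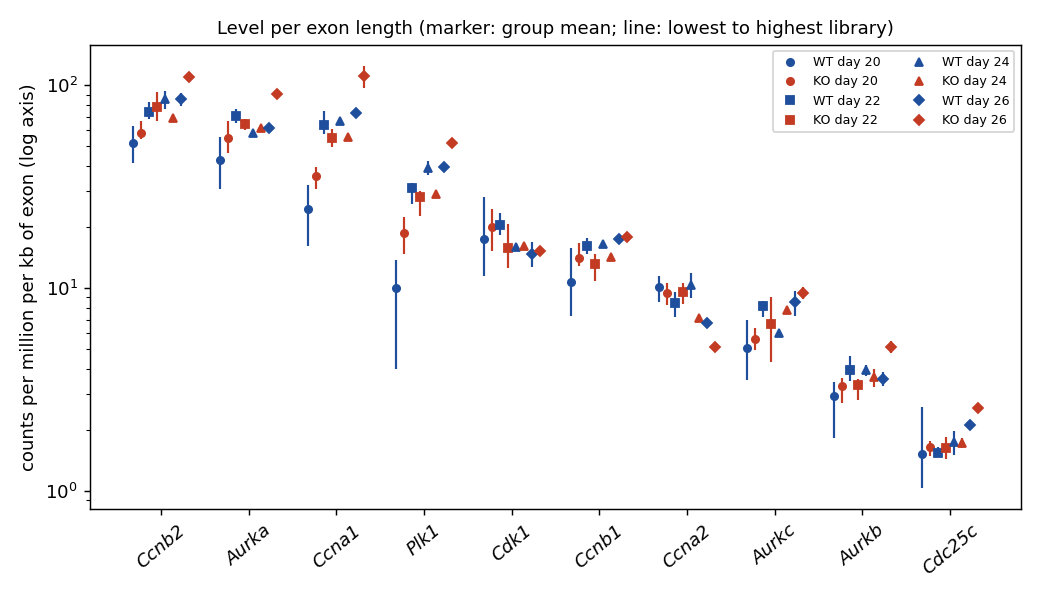
Mean level of each gene in each genotype and day, in CPM per kilobase of exon on a log axis (markers), with lines from the lowest to the highest library. *Ccnb2*, *Aurka* and *Ccna1* form the upper group, *Cdc25c* is the lowest in every group, and *Plk1* and *Ccna1* climb most from day 20.

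*Ccna1* and *Ccna2* moved in opposite directions between days 20 and 26. *Ccna1* in WT was at 58.9, 29.6, 37.0 and 53.8 CPM at day 20 and at 130 and 139 CPM at day 26. In KO it was at 67.3, 56.4, 67.1 and 72.7 CPM at day 20 and at 178 and 229 CPM at day 26. Every library of day 26 exceeded every library of day 20 in both genotypes. The log2 rise was 1.59 (SE 0.189, adjusted p = 8.81e-07 by edgeR) in WT, a 3.0-fold change, and 1.63 (SE 0.188, adjusted p = 1.6e-06) in KO. Without WT_d20_2 the WT rise was 1.40 (adjusted p = 1.47e-06). *Ccna2*, in WT, was at 45.5, 47.1, 35.0 and 37.7 CPM at day 20 and at 29.0 and 25.9 CPM at day 26. In KO it was at 35.8, 33.6, 43.1 and 42.5 CPM at day 20 and at 21.6 and 20.3 CPM at day 26. All day 26 libraries lay below all day 20 libraries of their genotype. *Ccna2* fell by 0.59 on the log2 scale in WT (SE 0.164, adjusted p = 0.0068) and by 0.89 in KO (SE 0.167, adjusted p = 0.000197). It was -0.56 in WT without WT_d20_2 (adjusted p = 0.00719). The WT fall missed the threshold without WT_d26_2 (adjusted p = 0.0903).

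The exchange of A cyclins can be read within each library as the ratio of *Ccna1* to *Ccna2* per length, which does not depend on the scaling between libraries. In the WT libraries of day 20 the ratio was 2.88, 1.4, 2.35 and 3.17, and in those of KO 4.19, 3.74, 3.46 and 3.81. Day 22 gave 7.92, 6.03, 8.42 and 8.01 in WT, and 4.68, 7.25, 5.04 and 6.39 in KO. Day 24 gave 5.78 and 7.21 in WT, and 7.31 and 8.47 in KO. By day 26 it had reached 9.99 and 11.9 in WT, and 18.4 and 25.2 in KO. Per length, *Ccna1* thus exceeded *Ccna2* in every library, and the KO libraries lay above the WT libraries at days 20, 24 and 26. They overlapped at day 22. In CPM not divided by length, *Ccna2* was above *Ccna1* in WT_d20_2 (47.1 and 29.6 CPM). Per longest transcript the mean ratio was 1.9 in place of 2.45 in WT at day 20, and 16.9 in place of 21.8 in KO at day 26. For the levels of single genes, no overlap between genotypes was found for 4.71% of all genes at day 20, and with 2 libraries a group for 44% at day 24 and 59% at day 26. No test was made on this ratio.

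**Figure D2:**
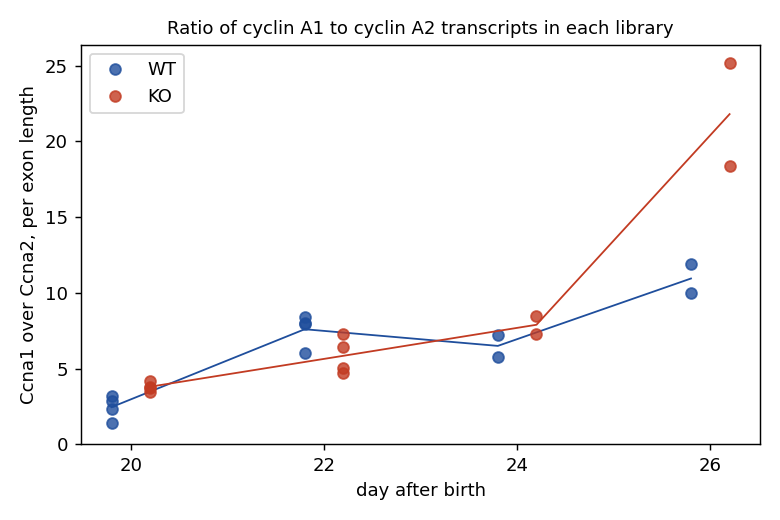
Ratio of *Ccna1* to *Ccna2* per exon length in each of the 24 libraries, by day after birth, with WT and KO in different colours and lines through the group means. The ratio starts between 1.4 and 4.19 at day 20 and reaches 9.99 to 11.9 in WT and 18.4 to 25.2 in KO at day 26.

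*Plk1*, whose product helps to build the bipolar spindle and marks the CDK1 inhibitor WEE1 for destruction, had the largest rise of the members in WT. The WT libraries of day 20 had 24.2, 8.74, 24.8 and 30.2 CPM and those of day 26 had 83.4 and 91.3 CPM. In KO the values were 36.9, 32.4, 46.2 and 49.6 CPM at day 20 and 110 and 120 CPM at day 26. The groups did not overlap in either genotype. *Plk1* rose 3.94-fold in WT (log2 1.98, SE 0.263, adjusted p = 3.25e-06 by edgeR) and 2.78-fold in KO (log2 1.47, SE 0.261, adjusted p = 0.000112). Without WT_d20_2 the WT rise was 1.68 (adjusted p = 5.04e-07).

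The B cyclins bind CDK1 to form the M-phase kinase. *Ccnb1* was at 39.2, 66.2, 30.6 and 44.2 CPM in WT at day 20, with the highest value in WT_d20_2, and at 75.9 and 72.0 CPM at day 26. It was at 70.4, 54.1, 57.5 and 54.6 CPM in KO at day 20 and at 72.0 and 79.0 CPM at day 26. It rose by 0.72 (SE 0.193, adjusted p = 0.00502) in WT, and by 0.92 without WT_d20_2 (adjusted p = 2.13e-05). In KO its log2 change was 0.35 (SE 0.194, adjusted p = 0.133), which passed without WT_d20_2 (0.35, adjusted p = 0.0273) and with the genotype fitted alone (0.35, adjusted p = 0.0419), fits in which 59.1% and 56.1% of all genes passed. *Ccnb2* had 63.4 to 96.3 CPM in WT at day 20 and 121 and 140 CPM at day 26, and 83.2 to 102 CPM in KO at day 20 and 160 and 178 CPM at day 26. It rose by 0.72 (SE 0.158, adjusted p = 0.000906) in WT, or 0.59 without WT_d20_2 (adjusted p = 0.00286), and by 0.91 (SE 0.156, adjusted p = 8.05e-05) in KO.

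*Cdk1*, the kinase itself, did not pass in either genotype. It was at 68.5, 139, 56.8 and 81.2 CPM in WT at day 20 and at 83.1 and 62.7 CPM at day 26, with WT_d20_2 far above the rest. In KO it was at 121, 110, 89.2 and 75.0 CPM at day 20 and at 76.2 and 73.6 CPM at day 26. The log2 changes were -0.24 (SE 0.263, adjusted p = 0.48) in WT and -0.40 (SE 0.264, adjusted p = 0.212) in KO, and in WT the change was 0.04 without WT_d20_2. *Cdc25c* was at 5.11 to 12.7 CPM in WT at day 20, where WT_d20_2 was again the highest and the other libraries ended at 6.84 CPM, and at 10.7 and 10.0 CPM at day 26. Its change in WT was 0.49 (SE 0.245, adjusted p = 0.114), and 0.81 without WT_d20_2 (adjusted p = 0.000294). In KO it was at 7.31 to 8.63 CPM at day 20 and at 12.2 and 13.0 CPM at day 26, and rose by 0.64 (SE 0.241, adjusted p = 0.0303). The KO call was lost without either KO library of day 26, KO_d20_2 or KO_d20_4 (adjusted p = 0.0527 to 0.159).

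All 3 Aurora kinases had smaller log2 changes over time than *Plk1*. *Aurka*, which matures centrosomes and spindle poles, was at 140, 88.7, 77.6 and 126 CPM in WT at day 20 and at 151 and 162 CPM at day 26. It was at 168, 129, 141 and 118 CPM in KO at day 20 and at 222 and 237 CPM at day 26. It rose by 0.53 (SE 0.174, adjusted p = 0.0175) in WT and by 0.73 (SE 0.172, adjusted p = 0.00159) in KO. In WT the call was lost without WT_d20_3 (adjusted p = 0.0542), without WT_d26_2 (adjusted p = 0.124) or with the genotype fitted alone (adjusted p = 0.0552), and without WT_d20_2 the WT rise was 0.41 (adjusted p = 0.0473). *Aurkc*, a kinase of the chromosomal passenger complex in germ cells, rose by 0.76 in each genotype (SE 0.246 and 0.243, adjusted p = 0.0176 in WT and 0.0127 in KO), from 5.34 to 10.7 CPM at day 20 to 11.1 and 14.8 CPM at day 26 in WT, and from 7.52 to 9.64 CPM to 13.5 and 15.4 CPM in KO. Without WT_d20_2 the WT rise was 0.79 (adjusted p = 0.0147). The *Aurkc* call was lost without WT_d20_1, WT_d20_3 or WT_d26_1 in WT (adjusted p up to 0.219) and without KO_d26_1 in KO (adjusted p = 0.106). *Aurkb*, the form of the same complex that is general to dividing cells, was at 5.37 to 10.1 CPM in WT at day 20 and at 11.4 and 9.69 CPM at day 26, a log2 change of 0.27 (SE 0.201, adjusted p = 0.292), and of 0.06 without WT_d20_2 (adjusted p = 0.781). In KO it rose by 0.65 (SE 0.196, adjusted p = 0.00853), from 8.04 to 10.6 CPM to 14.1 and 16.2 CPM. The KO call was lost without KO_d26_2 (adjusted p = 0.12).

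Between days 20 and 26, then, 7 of the 10 genes passed in WT, 6 higher and 1 lower, while 42.5% of all genes tested passed, 24.4% higher and 18.1% lower. In KO 8 passed, 7 higher and 1 lower, against 52.2% of all genes, 27.2% higher and 24.9% lower. The median log2 change of the members was 0.626 in WT and 0.69 in KO, against -0.044 and -0.069 over all genes. *Ccna1*, *Ccna2*, *Ccnb2*, *Plk1*, *Aurka* and *Aurkc* passed in both. Without WT_d20_2, 8 passed in WT and 9 in KO, against 46.4% and 59.1% of all genes. The groups of the 2 days did not overlap for 7 members in WT and 9 in KO, and for 50.4% and 70% of all genes; without WT_d20_2 they did not overlap for 8 members in WT and 63.4% of all genes. No member passed the test of the difference between the KO and WT changes (adjusted p from 0.709 to 1.0, with none at an unadjusted p under 0.05, as 10.8% of all genes had, and 0 calls in DESeq2). The lowest p was that of *Aurkb*, with a KO minus WT difference of 0.38 (SE 0.284), and the widest difference was that of *Plk1*, -0.51 (SE 0.384). That order rests on WT_d20_2. Without it the differences were 0.59 for *Aurkb* (SE 0.226, edgeR adjusted p = 0.193), -0.57 for *Ccnb1* (SE 0.196, edgeR adjusted p = 0.162) and -0.21 for *Plk1* (SE 0.237). Then these 2, *Aurkb* and *Ccnb1*, had an unadjusted p under 0.05, as 17.8% of all genes did, and none passed. No gene of the 17170 passed this test in edgeR with all libraries (0%), whereas 1.35% did in DESeq2, and 326 genes did in edgeR without KO_d20_2, against 0 to 2 without any other single library. Over the same days the round spermatid markers went from 11.1 to 41.3 CPM in sum to 1090 to 1140 CPM in WT and from 42.5 to 195 CPM to 1170 to 1210 CPM in KO, and the pachytene markers from 2250 to 2890 CPM to 4670 to 5020 CPM in WT and from 2800 to 3790 CPM to 5760 to 5770 CPM in KO. In WT the elongating spermatid markers went from 2.0 to 8.93 CPM to 2070 to 3210 CPM and the Leydig cell markers from 348 to 454 CPM to 1260 to 2050 CPM. Those of Sertoli cells went down from 1850 to 2610 CPM to 1210 to 1400 CPM, those of spermatogonia from 299 to 382 CPM to 203 to 225 CPM, and those of peritubular cells from 703 to 1190 CPM to 433 to 529 CPM. In KO the same 5 lists went from 7.06 to 121 CPM to 3330 to 3360 CPM, from 337 to 868 CPM to 1050 to 1170 CPM, from 1820 to 1970 CPM to 1420 to 1440 CPM, from 273 to 322 CPM to 184 to 187 CPM and from 608 to 762 CPM to 332 to 375 CPM. Their part in the changes of the members was not tested.

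**Figure D3:**
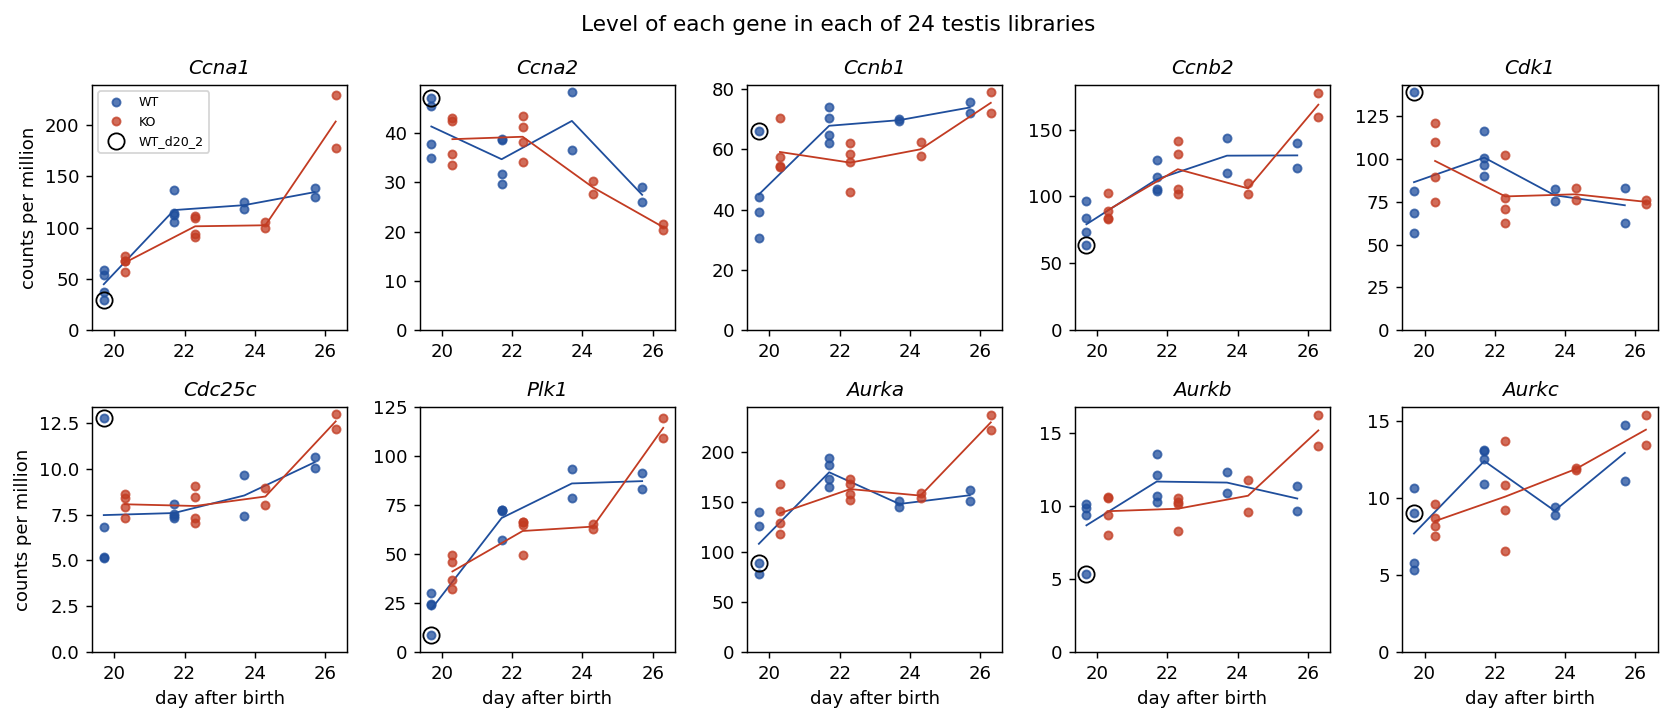
CPM of each of the 10 genes in each library (points), with lines through the group means of WT and KO by day after birth, and the library WT_d20_2 circled. *Plk1* and *Ccna1* climb, *Ccna2* falls, and the circled library is the highest WT point of day 20 for *Cdk1* (139 CPM) and *Cdc25c* (12.7 CPM) and the lowest for *Plk1* (8.74 CPM).

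**Figure D4:**
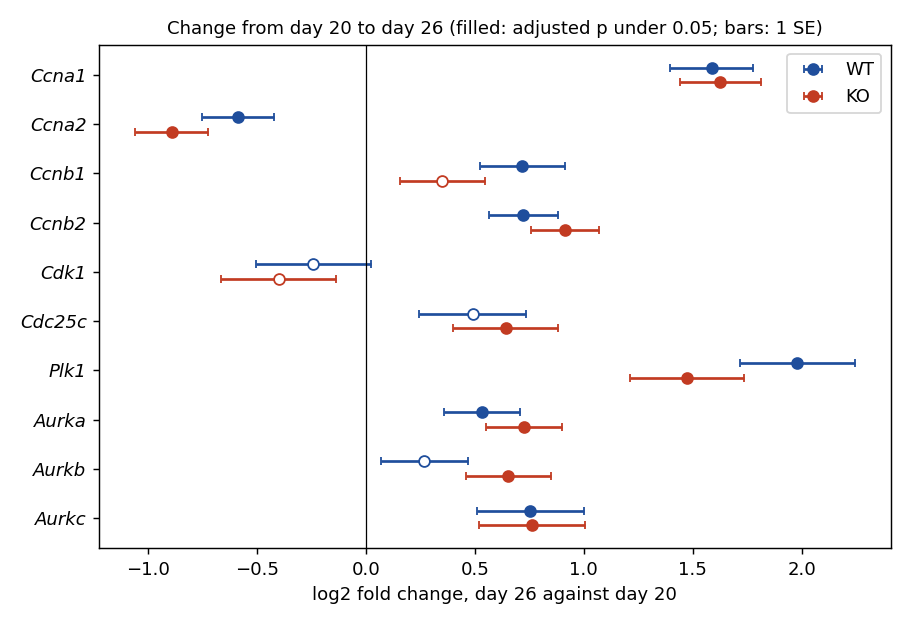
Log2 fold change of day 26 against day 20 in WT and in KO, with bars of 1 SE; filled points have an adjusted p under 0.05. *Plk1* and *Ccna1* lie farthest to the right in both genotypes, *Ccna2* is the member to the left that passed, and both points of *Cdk1* are open.

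The second question was whether loss of ATAD2 shifts these genes at a given day. At day 20, 1 of the 10 passed, *Plk1*, where 3.34% of all genes passed, 2.98% as higher. The 4 KO libraries, at 32.4 to 49.6 CPM, lay above all WT libraries, which ended at 30.2 CPM, and groups that do not overlap were found for 4.71% of genes. *Plk1* was 1.86-fold higher in KO (log2 0.90, SE 0.227, adjusted p = 0.0297 by edgeR). The call was lost without KO_d20_3 (0.84, adjusted p = 0.102), KO_d20_4 (0.80, adjusted p = 0.126), WT_d20_1 (0.94, adjusted p = 0.0689) or WT_d20_3 (0.97, adjusted p = 0.0722), and with day 20 fitted alone (0.90, adjusted p = 0.487), where 0.0328% of all genes passed. Without WT_d20_2 the log2 difference was 0.63 (adjusted p = 0.0408).

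*Ccna1* was next at day 20, with a KO over WT fold of 1.47 (log2 0.55, SE 0.162, adjusted p = 0.0662), and its groups overlapped at 56.4 to 58.9 CPM. DESeq2, in which 4.92% of all genes passed, called it (adjusted p = 0.0243), as did edgeR without KO_d20_2, WT_d20_1 or WT_d20_4. Without WT_d20_2 its difference was 0.39 (adjusted p = 0.136). *Ccnb1* and *Aurka* had log2 differences of 0.40 (SE 0.162, adjusted p = 0.27) and 0.36 (SE 0.145, adjusted p = 0.263). In the fit without WT_d20_2, where 1.87% of all genes passed, *Ccnb1* passed as well as *Plk1* (0.62, adjusted p = 0.0185), *Cdc25c* was at 0.48 (adjusted p = 0.0658) and *Cdk1* at 0.50 (adjusted p = 0.106), and the genotypes did not overlap for *Plk1*, *Ccnb1* and *Cdc25c*, nor for 11.7% of all genes. In the full fit *Cdk1* was at 0.20, *Cdc25c* at 0.13, *Ccnb2* at 0.18, *Aurkb* at 0.14, *Aurkc* at 0.15 and *Ccna2* at -0.09. In all, 9 of the 10 lay above 0, with a median of 0.187 against 0.005 for all genes, and 4 had an unadjusted p under 0.05, as 12.5% of all genes did. Without WT_d20_2, 8 of the 10 lay above 0, *Aurka* being at 0.26, *Aurkc* at 0.22, *Ccnb2* at 0.07, *Aurkb* at -0.03 and *Ccna2* at -0.04.

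Markers of cell types were also summed at this day. Those of early meiosis stood at 1340 to 2550 CPM in WT and 1300 to 1960 CPM in KO, with 4 of 10 log2 differences above 0 and 0 called. At day 20 the summed level of 12 round spermatid markers was 11.1 to 41.3 CPM in WT and 42.5 to 195 CPM in KO, 11 of the 12 passing as higher in KO. The 10 pachytene markers summed to 2250 to 2890 CPM in WT and 2800 to 3790 CPM in KO, with 1 of 10 called as higher (*Pgk2*, a glycolytic enzyme of germ cells), and the 8 elongating spermatid markers to 2.0 to 8.93 CPM and 7.06 to 121 CPM, with 4 called. *Mybl1*, 1 of the pachytene markers not called, is also on the list of transcription regulators. Of other cells, the blood markers summed to 5.11 to 12.8 CPM in WT and 13.5 to 19.4 CPM in KO (3 of 3 tested above 0), and *Hba-a1* and *Hbb-bs* were at 0 in all libraries. The markers above 0 were 7 of 7 for Leydig cells (348 to 454 CPM and 337 to 868 CPM), 6 of 6 for macrophages (101 to 169 CPM and 120 to 189 CPM), 0 of 6 for peritubular cells (703 to 1190 CPM and 608 to 762 CPM) and 0 of 6 for endothelium (72.8 to 117 CPM and 56.1 to 81.8 CPM), with none called. Their part in the *Plk1* and *Ccna1* differences was not tested.

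At day 22 no member passed in edgeR or in DESeq2. Of all genes, 2.51% did in edgeR (from 0.35% without WT_d22_4 and 0.432% without WT_d22_3 to 5% without KO_d22_1), and 737 of 18064 did in DESeq2. No member had an unadjusted p under 0.05 in edgeR, against 14.6% of all genes. The log2 differences ran from -0.37 (*Cdk1*, SE 0.213) to 0.18 (*Ccna2*, SE 0.131), 7 were below 0, and the groups overlapped for every member, where they did not for 8.09% of all genes. *Plk1* was at 68.5 ± 7.62 CPM in WT and 61.9 ± 8.04 CPM in KO (SD, n = 4), and *Ccna1* at 117 ± 13.8 CPM and 101 ± 10.4 CPM. The markers of spermatids summed to 134 to 206 CPM in WT and 201 to 620 CPM in KO for round spermatids (1 of 12 called as higher, 12 above 0) and to 46.7 to 103 CPM and 101 to 649 CPM for elongating spermatids (4 of 8 called as higher, 8 above 0). The pachytene markers summed to 3180 to 3850 CPM and 3340 to 4330 CPM, the endothelial markers to 69.6 to 74.0 CPM and 31.0 to 59.1 CPM (1 of 6 called as lower, 0 above 0) and the peritubular markers to 591 to 851 CPM and 304 to 621 CPM (0 of 6 above 0). At day 24 no member passed in either tool, with 0.0874% of all genes passing in edgeR and 37 of 17233 in DESeq2. *Ccna2* was the 1 member with an unadjusted p under 0.05, as 5.23% of all genes had, at 48.3 and 36.6 CPM in WT and 30.3 and 27.7 CPM in KO (log2 -0.55, SE 0.185, adjusted p = 0.527). *Plk1* was at 93.4 and 79.0 CPM in WT and 62.9 and 65.5 CPM in KO (log2 -0.43, SE 0.312). The groups of 7 members did not overlap, 5 lower and 2 higher, as was so for 44% of all genes with 2 libraries a group (21.4% lower and 22.6% higher). The elongating spermatid markers summed to 496 to 570 CPM in WT and 839 to 1650 CPM in KO at day 24 and the round spermatid markers to 523 to 694 CPM and 597 to 652 CPM, and the pachytene markers to 3760 to 4020 CPM in WT and 4250 to 4310 CPM in KO, with 0 called in any of these lists. At day 24 the Leydig cell markers summed to 585 to 845 CPM in WT and 1050 to 1290 CPM in KO (6 of 7 above 0). Those of endothelium summed to 67.6 to 87.2 CPM and 55.6 to 66.5 CPM (1 of 6 above 0). Those of peritubular cells summed to 596 to 650 CPM in WT and to 524 CPM in KO (2 of 6 above 0), with 0 called in these lists. The part of all these cells in the values of days 22 and 24 was not tested. Without WT_d20_2, 2 members had an unadjusted p under 0.05 at day 22 and 2 at day 24, as 17.5% and 6.63% of all genes did, and none passed.

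At day 26 most members had estimates above 0 in KO against WT, but none passed in edgeR or DESeq2. Of all genes, 0.0466% passed in edgeR, 0% as higher, and 139 of 16817 passed in DESeq2. *Ccna1* had log2 0.60 (SE 0.225, adjusted p = 0.305), *Aurka* 0.55 (SE 0.204, adjusted p = 0.298), *Aurkb* 0.53 (SE 0.231, adjusted p = 0.379), *Plk1* 0.39 (SE 0.311), *Ccnb2* 0.37 (SE 0.186) and *Cdc25c* 0.28 (SE 0.281). *Ccna2* was at -0.39 (SE 0.187), and *Ccnb1*, *Cdk1* and *Aurkc* at 0.03, 0.04 and 0.16. In all 9 of 10 were above 0, and the median was 0.324 against -0.037 over all genes. An unadjusted p under 0.05 was found for 4 members and for 11.5% of all genes, and non-overlapping groups for 7 members, 6 higher and 1 lower, and for 59% of all genes (27.8% higher and 31.1% lower). With day 26 fitted alone, *Ccna1*, *Ccnb2*, *Plk1* and *Aurka* passed (adjusted p from 0.00575 to 0.0356), as did 12.8% of all genes. That fit estimates the spread from 4 libraries. Without WT_d20_2 none passed, and 6 had an unadjusted p under 0.05, as 17.4% of all genes did. The round spermatid markers summed to 1090 to 1140 CPM in WT and 1170 to 1210 CPM in KO, the pachytene markers to 4670 to 5020 CPM and 5760 to 5770 CPM, and the spermatogonial markers to 203 to 225 CPM and 184 to 187 CPM. Elongating spermatid markers summed to 2070 to 3210 CPM and 3330 to 3360 CPM, with 8 of 8 above 0. Lower sums in KO were found for the markers of peritubular cells (433 to 529 CPM and 332 to 375 CPM), Leydig cells (1260 to 2050 CPM and 1050 to 1170 CPM) and endothelium (65.0 to 67.3 CPM and 43.2 to 49.5 CPM), with 0 of 6, 0 of 7 and 0 of 6 above 0. The Sertoli cell markers summed higher in KO (1210 to 1400 CPM in WT and 1420 to 1440 CPM in KO), though 1 of 10 was above 0. Those of macrophages overlapped (129 to 217 CPM and 142 to 144 CPM), with 0 of 6 above 0. No marker of these lists passed at day 26. The part of these cells in the values of the members was not tested.

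**Figure D5:**
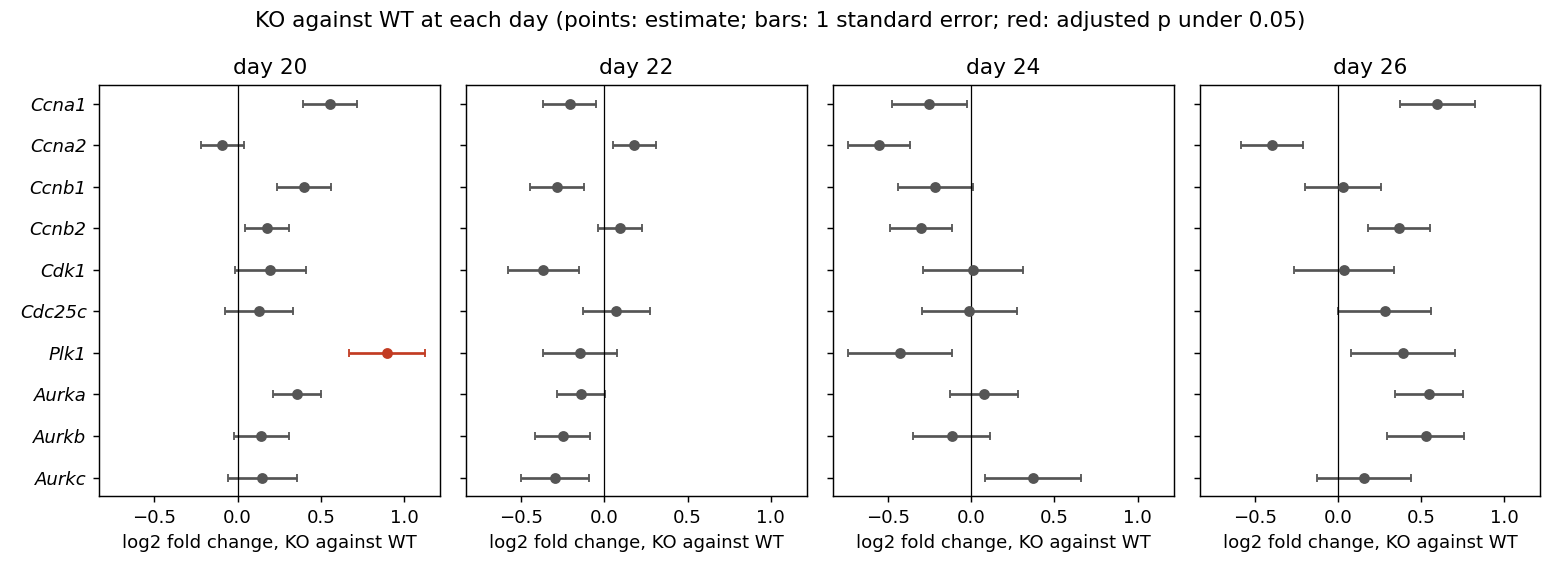
Log2 fold change of KO against WT for each gene at each of the 4 days, with bars of 1 SE; the red point, *Plk1* at day 20 (0.90), has an adjusted p under 0.05. Most members are above 0 at days 20 and 26 and below 0 at days 22 and 24.

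The members' estimates were mostly above 0 at days 20 and 26 and below 0 between. Averaged over the 4 days no member passed in edgeR, against 7.08% of all genes, with 2 at an unadjusted p under 0.05 (23.2% of all genes). None passed in DESeq2, where 1784 of 18479 genes did. *Ccna2* stood at -0.21 (SE 0.080, adjusted p = 0.106) and *Aurka* at 0.21 (SE 0.088, adjusted p = 0.15). The joint test of whether the KO difference varies between days passed no member in edgeR, with 0.00582% of all genes passing. The adjusted p was 0.327 for *Ccna1*, 0.354 for *Plk1*, 0.425 for *Ccna2*, 0.522 for *Ccnb1* and 0.523 for *Aurka*, the 5 members with an unadjusted p under 0.05, a level that 9.06% of all genes reached. DESeq2, in which 1.57% of all genes passed this test, gave *Ccna1* an adjusted p of 0.0447 and no other member passed. Without WT_d20_2 no member passed either test in edgeR, with 3 members at an unadjusted p under 0.05 over the mean of days and 7 in the joint test, against 26.4% and 14.5% of all genes.

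The partners of these genes were read from 5 lists of 71 genes in all, of which 70 were tested: CDK1 and cyclin partners (14 genes), the switches of CDK1 (14), Aurora and Polo partners (15), the anaphase promoting complex and spindle checkpoint (18) and transcription regulators of division genes (10). From day 20 to day 26, 31 passed in WT (17 higher, 14 lower) and 37 in KO (21 higher, 16 lower). These are 44.3% and 52.9% of the genes tested, near the 42.5% and 52.2% of all genes. The WT count was 17 without WT_d26_2, when 27% of all genes passed. In WT the furthest up were the histone H3 kinase haspin, *Gsg2* (2.09), cyclin D3, *Ccnd3* (1.91), and *Foxm1* (1.55), a transcription factor that drives mitotic genes. The furthest down were *Ccnb3* (-1.55), a B-type cyclin of early meiotic cells, *Taf4b* (-1.11), a germ cell TFIID subunit, and the inhibitor of the anaphase promoting complex *Fbxo5* (-0.93). In KO the furthest up were *Gsg2* (1.77), *Skp2* (1.65), a ubiquitin ligase subunit, and *Foxm1* (1.41), and the furthest down *Cdc25b* (-1.27), cyclin D2 *Ccnd2* (-1.01) and *Fbxo5* (-0.99).

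By list, the CDK1 and cyclin partners had 2 higher and 5 lower in WT and 2 higher and 6 lower in KO. The switches of CDK1 had 4 higher and 2 lower in WT and 5 and 3 in KO, with 13 tested. The Aurora and Polo partners had 4 and 2 in WT and 4 and 1 in KO. The anaphase promoting complex and checkpoint list had 5 and 3 in WT and 7 and 4 in KO. The transcription regulators had 2 and 2 in WT and 3 and 2 in KO. The list medians of the day 26 against day 20 change were -0.389, 0.26, -0.022, 0.257 and -0.076 in WT in this order, beside -0.044 over all genes.

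Between genotypes few partners passed. None passed at days 20, 22 and 26, with 7, 0 and 10 of the 70 at an unadjusted p under 0.05 (10%, 0% and 14.3%, against 12.5%, 14.6% and 11.5% of all genes). With day 26 fitted alone 18 passed, in a fit where 12.8% of all genes did. At day 24 *Skp2* was higher in KO, at 21.1 to 28.7 CPM against 12.8 to 13.6 CPM (log2 0.91, SE 0.166, adjusted p = 0.0222), a call lost without KO_d24_1, WT_d24_1 or WT_d24_2 (adjusted p = 0.155 to 0.764) and with the day fitted alone (0.92, adjusted p = 0.163), where 0.0874% of all genes passed in the fit of all libraries. Over the mean of the days 3 of the 70 partners passed (4.29%), and 7.08% of all genes. The share of all genes ran from 1.73% without WT_d24_2 to 10.1% without KO_d22_1, and the number of partners from 1 to 4. *Skp2* was higher (0.29, SE 0.071, adjusted p = 0.0226), the D-type cyclin *Ccnd1* lower (-0.42, SE 0.092, adjusted p = 0.0122) and the phosphatase *Cdc25b* lower (-0.43, SE 0.117, adjusted p = 0.0325). The *Cdc25b* call was lost when any of 8 libraries was left out and with no filter on low counts (-0.41, adjusted p = 0.0529), the *Skp2* call without KO_d24_1 or WT_d26_2, and the *Ccnd1* call without WT_d24_2 or KO_d26_1.

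The genes with a course most like each member were found by the root mean square distance between log2 CPM profiles, each centred on its own mean, over the 24 libraries. These distances are descriptions, since the libraries share scaling and day. *Ccnb2* had the closest match, *Supt20* at 0.099 and *Ppp3cc* at 0.1. *Aurka* was nearest to *Pik3ip1* (0.11) and *Gm11992* (0.112), *Ccnb1* to *Uqcrfs1* (0.117) and *Cep72* (0.118), *Cdk1* to *Nup37* (0.127) and *Asb3* (0.131), and *Aurkb* to *Adamts17* and *Rhobtb1* (both 0.135). *Plk1* was nearest to *Fam46b* (0.137) and *Arc* (0.153), *Cdc25c* to *Pias1* (0.137) and *Kpna2* (0.145), *Ccna1* to *4930483J18Rik* and *Pkdrej* (both 0.143), *Ccna2* to *Hn1l* (0.162) and *Nucks1* (0.168), and *Aurkc* to *Spata16* (0.234) and *4933422A05Rik* (0.235). Among the members *Ccnb2* and *Aurka* were closest (0.196) and *Ccna2* and *Plk1* farthest apart (1.037).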

How the data were processed

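Raw counts per gene were deposited by the authors as 1 table per library: reads were aligned to mm10 with STAR 2.7.11b and read pairs were counted on exons with HTSeq, strand-specifically and with pairs aligning to several places discarded. The authors normalised with DESeq2 1.22.2, but the deposited counts are not normalised. Tallies of unassigned pairs stayed out of library sizes and tests; 45.1% to 58.5% of pairs were tallied as assigned to no feature, which with the strict, strand-specific counting includes pairs that lie on an exon only in part or on the other strand. The labels give 4 libraries per genotype at day 20, more than the text of the study, and all were used. The study calls its replicates biological.

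Counts were scaled by TMM and tested with the two-sided quasi-likelihood test of edgeR 4.0.16 (limma 3.58.1, R 4.3.3) after filterByExpr at a minimum count of 10, with 1 coefficient for each of 8 groups over all 24 libraries and Benjamini-Hochberg adjustment over 17170 genes. A gene passed at an adjusted p under 0.05. CPM values are TMM-scaled, and profiles used log2 CPM with a prior count of 2. Levels between genes are per kilobase of exon. Alternatives were DESeq2 1.42.0, its size factors in edgeR, no filter, a replicate block, a day or genotype fitted alone, the longest transcript, and leaving out each library. The scripts were tested on simulated data. All members are named; of the lists, the 3 genes with the largest change among those that passed are named in each direction and comparison, and the 2 nearest profiles for each member. The members and lists were chosen with earlier results of these data known.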

Additional observations from a re-analysis of the deposited data

Results flagged for a closer look

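In 4 of the 40 sets of 4 libraries checked (each member in each group of days 20 and 22), the lowest library stood apart from the other 3 beyond Dixon's limit on the gap as a share of the range; chance gives about 1 in 20. *Plk1* was at 57.1 CPM in WT_d22_2, where the others had 72.1 to 72.6 CPM, and at 49.9 CPM in KO_d22_3, where the others had 65.1 to 66.4 CPM. *Aurkb* was at 5.37 CPM in WT_d20_2 (others 9.36 to 10.1 CPM) and at 8.3 CPM in KO_d22_3 (others 10.2 to 10.5 CPM). Leaving any of these libraries out changed no call of *Plk1* or *Aurkb* between genotypes.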

How the results depend on the processing

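Days 24 and 26 have 2 libraries a genotype, and *Cdc25c*, *Aurkb* and *Aurkc* have few counts, down to 51 in a library. At day 20, 2 members passed in DESeq2 and 0 with the day fitted alone, in fits that called 4.92% and 0.0328% of all genes. At day 26, 4 passed with the day fitted alone, with 18 other pathway genes (15 higher), in a fit that called 12.8% of all genes. At day 24 the pathway count was 0 with the day alone. In the joint test of days DESeq2 called 1 member and 1 pathway gene, and 1.57% of all genes. By the longest transcript, the level order put *Aurka* at 1, *Ccnb2* at 2, *Ccnb1* at 5 and *Cdk1* at 6. Without the filter *Ccnb1* over the mean of days was 0.0010 in place of -0.019. The cause was not tested.

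The samples share only a replicate number: the correlation of deviations was 0.071 to 0.41 in the 4 pairs of day 20, where 6 of 8 libraries correlated best with their own number, and -0.459 to -0.025 in the 4 pairs of day 22, where 0 of 8 did. Days 24 and 26, with 2 libraries a group, give 1 value each (0.39 and 0.416). With a replicate block within day in edgeR, 2 members and 1 pathway gene passed at day 20, where 595 of 17170 genes did. At day 24, 0 pathway genes passed (*Skp2* 0.90, adjusted p = 0.125), where 9 of 17170 genes did. With a block by number, the *Aurkc* difference between the genotypes' changes was -0.014. In that fit *Cdk1* passed in KO over time (-0.59, adjusted p = 0.0366) and *Cdc25c* did not (0.54, adjusted p = 0.0763), where 9132 of 17170 genes passed.

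Leaving out 1 library moved the share of all genes called at day 20 from 3.34% to as low as 0.882% (WT_d20_3) or as high as 4.55% (KO_d20_2), at day 26 to at most 0.6% (WT_d20_2), in the joint test to at most 0.817% (KO_d20_2), and in KO over time to as low as 33.4% (KO_d26_2). It gave 0 to 2 members at day 20, 0 to 1 over the mean of days (*Aurka*, without WT_d20_1), 0 to 1 pathway genes at day 24, 1 to 4 over the mean and 17 to 35 over time in WT. Signs turned in these ranges: day 20, *Cdc25c* -0.012 to 0.479 and *Aurkb* -0.034 to 0.221; day 24, *Cdk1* -0.054 to 0.078, *Cdc25c* -0.17 to 0.20 and *Aurkb* -0.272 to 0.025; day 26, *Ccnb1* -0.019 to 0.122, *Cdk1* -0.15 to 0.27 and *Aurkc* -0.032 to 0.387; mean of days, *Ccnb1* -0.044 to 0.046 and *Cdk1* -0.077 to 0.055; WT over time, *Cdk1* -0.465 to 0.040; and the difference of changes, *Ccna1* -0.14 to 0.23, *Cdk1* -0.437 to 0.065, *Cdc25c* -0.17 to 0.32 and *Aurkc* -0.18 to 0.23. None of these passed.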
